A study of Mus musculus with 8 samples.

Results

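The hypothalamus arrays compared mice given a choice of diets for 24 h with mice on chow, and they were 4 of the 8 arrays of the study; the other 4 were of liver. They were chosen by their titles, as the arrays of hypothalamus from the 2-choice and the chow condition, and paired by strain. Each was hybridised with RNA pooled from 6 male mice, so there was 1 pool and 1 array per strain and diet, and no pool was repeated. The 2-choice groups were C57BL/6J mice (B6 here) and B6.CAST-17 mice, a homozygous congenic strain that carries a chromosome 17 segment of CAST origin on the B6 background. The choice lay between a diet of 78% carbohydrate with 22% protein and a diet of 78% fat with 22% protein. The chow groups were B6 and B6.CAST-17 mice on laboratory chow. Per the labels, 20 to 25 mice per strain were first tested on self-selected diets for 10 days. Those furthest apart in nutrient intake were taken, kept on chow for 6 weeks and offered the choice again, and tissue was taken 4 h before lights out. It is not stated whether the chow pools had the same history or the same hour of collection. The pools therefore came from selected mice, and the spread between animals within a pool was not measured.

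The hypothalamus controls appetite, body temperature, fluid balance, the daily rhythm and, through releasing hormones, the anterior pituitary. In its arcuate nucleus, neurons that make neuropeptide Y and agouti-related peptide drive feeding, and neurons that make pro-opiomelanocortin and CART restrain it. Orexin neurons of the lateral hypothalamus link wakefulness with food seeking, and the paraventricular and supraoptic nuclei make vasopressin, oxytocin and releasing hormones such as CRH and TRH.

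On the arrays, the hypothalamic peptide genes were bright. Oxt, the oxytocin gene, had log2 intensities of 17.81 and 18.37 in the 2-choice pools and 18.05 and 18.54 in the chow pools. Where 2 values of a diet are given, B6 comes first and B6.CAST-17 second, and levels are log2 intensity after quantile normalization over the 4 arrays. Of 24 hypothalamus marker genes, 19 were on the array and 15 passed the level filter. Otp and Nkx2-1, which encode transcription factors that define hypothalamic territory, did not pass it, with mean levels under 9.26 on the log2 scale.

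A pair of features of the chow arrays touch every result below. First, the deposited intensities of the diets had been scaled apart: the median was 1337.5 in both 2-choice arrays and 559.6 in both chow arrays, and the sorted values were the same within each diet. Diet and scaling set therefore cannot be told apart, and every difference here is relative to the other probes on the arrays. Second, the chow pools stood far from each other. Over 19807 tested probes, 14.5% were at least 1.5-fold apart between the 2-choice pools (Pearson r = 0.973 across probes) and 51.4% between the chow pools (r = 0.841). Between a 2-choice and a chow pool this share was 47.3% to 54.3%. The free-text description of the congenic chow sample also names C57BL/6J, against its title and its strain label. Decr2, a chromosome 17 gene of peroxisomal fatty acid oxidation, had levels of 12.61 and 9.35 in the 2-choice pools and 10.15 and 11.52 in the chow pools, so the strains stood in the opposite order. Cyp4f14, a fatty acid hydroxylase gene of the same chromosome, had 12.43 and 9.47 against 10.62 and 13.32. An exchange of the chow strains leaves each mean diet difference as it is and changes the pair differences and the error, and it was run as an alternative.

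**Figure D1:**
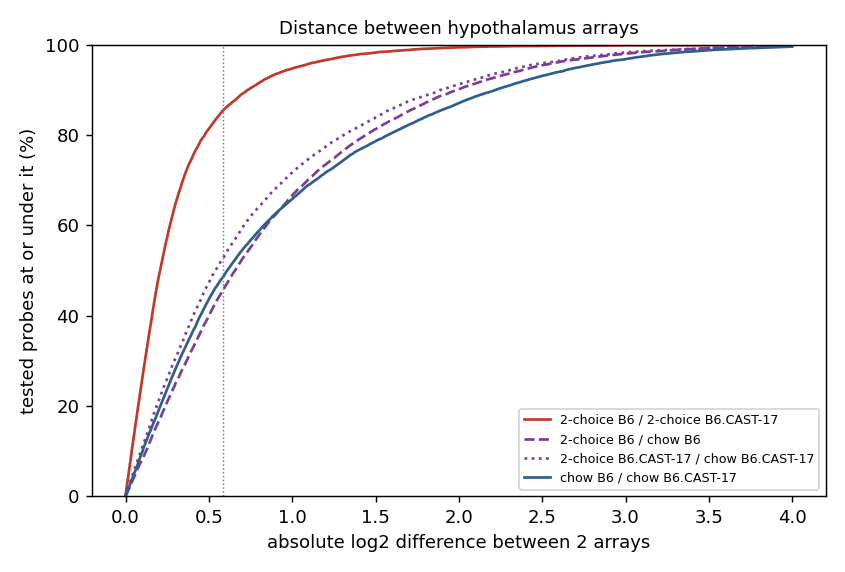
Cumulative share of 19807 tested probes (vertical axis, %) against the absolute log2 difference between a pair of arrays (horizontal axis); the dotted line marks 1.5-fold. The 2-choice pools (red) lie closer to each other, with 14.5% of probes beyond that line, than the chow pools (blue), with 51.4%; the purple lines compare 2-choice with chow within a strain.

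The genes named first are those with the widest gap between the arrays of the diets. Gh, the growth hormone gene, and Cga, the shared alpha subunit of the pituitary glycoprotein hormones, were higher after the choice in B6 and in B6.CAST-17 alike. So were Zfp992, which encodes a zinc finger protein, and Lrfn5, a synaptic adhesion molecule. Htr2b, the serotonin 2B receptor, and Ripk3, the kinase of necroptotic cell death, were lower. At bright levels Hspd1, the mitochondrial chaperonin, was higher, and Pam, the enzyme that amidates neuropeptides, was lower. Of the peptide genes of appetite, Hcrt, the orexin precursor, alone passed the test, and not under every alternative fit.

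limma called 753 of 19807 probes (3.80%) at an adjusted p of 0.05, 457 higher (2.31%) and 296 lower (1.49%) in the 2-choice pools. By gene, 438 of 9886 had a called probe (4.43%), 277 in the higher direction (2.80%) and 161 in the lower (1.63%). The median difference was 1.09 among the higher calls and -1.0 among the lower, on the log2 scale. Arrays of the 2 diets did not overlap for 730 of the 753 called probes, and for 10702 of all 19807 (54.0%), with 29.2% higher and 24.8% lower in the 2-choice pools. With the probes ranked by mean level and cut into 3 equal parts, the brightest held 362 of the higher and 224 of the lower calls (8.88% of its probes), and the dimmest 22 and 33 (0.833%). The median gap between the 2-choice arrays was 0.144 in the brightest and 0.375 in the dimmest part, against 0.302 and 1.06 between the chow arrays.

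These counts rest on a pairing of the arrays, by the strain labels or with the chow strains exchanged, and on the trend of the error with level. Without the strain block limma called 0 probes (3610 at an unadjusted p under 0.05), and without the trend also 0 (2344 at that level). With the spread shared with liver it called 97, of which 61 were among the 753. With the chow strains exchanged it called 1099, among them all 753. An exact permutation test of 2 arrays against 2 cannot go below p = 0.333.

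**Figure D2:**
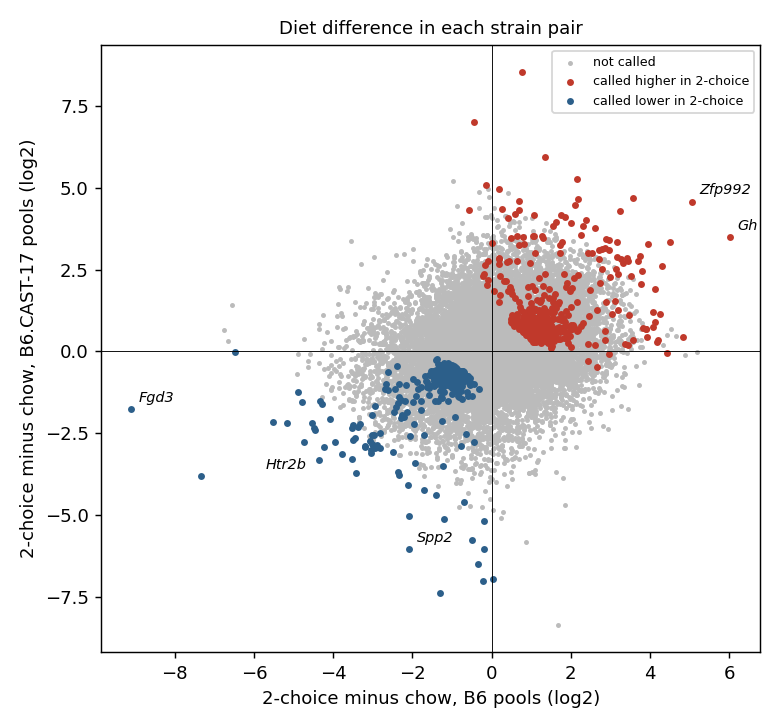
Difference of 2-choice minus chow (log2) in the B6 pools (horizontal axis) and in the B6.CAST-17 pools (vertical axis) for each tested probe; red and blue points are the 457 higher and 296 lower calls, grey points are not called. Zfp992 and Gh lie far out in both pairs, while Fgd3 rests mostly on the B6 pair and Spp2 on the B6.CAST-17 pair.

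Hormone genes of the anterior pituitary were higher in the 2-choice pools. Gh had levels of 14.31 and 12.24 in the 2-choice pools, against 8.28 and 8.74 in the chow pools, a log2 difference of 4.77 ± 0.79 (SE; limma adjusted p = 5.867e-05). The chow levels of Gh were below 9.26, the level needed for testing, so the size of this difference depends on values near the floor. Prl, the prolactin gene, had levels of 13.02 and 11.08 in the 2-choice pools and 9.22 and 8.62 in the chow pools, a log2 difference of 3.13 ± 0.87 (adjusted p = 0.02711). Cga had 13.12 and 12.63 in the 2-choice pools and 8.61 and 9.28 in the chow pools, a log2 difference of 3.93 ± 0.77 (adjusted p = 7.452e-04). No array of a diet overlapped the other diet for these 3 genes, nor for 54.0% of all tested probes. Gh and Prl were highest in the B6 2-choice pool. The other pituitary hormone subunits did not follow. Lhb, of luteinizing hormone, differed by -0.44 (adjusted p = 0.8342) and Tshb, of thyrotropin, by 0.21 (adjusted p = 0.9253). A pair of further pituitary markers, the transcription factor gene Tbx19 and the receptor gene Ghrhr, were under the filter. The list of 11 pituitary markers thus had 7 on the array and 5 tested, with 3 called higher, beside 2.80% of all 9886 genes tested. The tested markers had a mean level of 12.06 and 11.24 in the 2-choice pools and 9.44 and 9.22 in the chow pools. In Gh, Prl and Cga the chow mean was below 9.26, so they passed the filter, set on the mean of all pools, through their 2-choice pools. The count and the list means depend on this. The share of pituitary tissue in a dissected pool was not measured, and in bulk RNA more cells of a type and more RNA per cell cannot be told apart. The part of such tissue in these 3 differences was not tested.

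Gh was called along with Cga and Prl, but the promoter set used held no Gh promoter. The promoters shown are those of Cga, Prl and Hcrt, the called appetite peptide. Each is 300 bases from RefSeq (GRCm38.p6), 250 before and 50 after the start. The windows are chr4:34893529-34893828 (plus strand) for Cga, chr13:27057320-27057619 (plus strand) for Prl and chr11:100762882-100763181 (minus strand) for Hcrt. Capitals mark TATAAA and TATNCAT, the latter a core of the sites bound by the pituitary factor Pit-1, searched on both strands.
Cga: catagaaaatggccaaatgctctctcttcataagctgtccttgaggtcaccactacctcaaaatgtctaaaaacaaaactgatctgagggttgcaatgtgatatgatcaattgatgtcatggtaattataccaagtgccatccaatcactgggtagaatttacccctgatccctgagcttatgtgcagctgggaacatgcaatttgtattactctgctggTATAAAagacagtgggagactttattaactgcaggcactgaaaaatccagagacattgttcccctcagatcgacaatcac
Prl: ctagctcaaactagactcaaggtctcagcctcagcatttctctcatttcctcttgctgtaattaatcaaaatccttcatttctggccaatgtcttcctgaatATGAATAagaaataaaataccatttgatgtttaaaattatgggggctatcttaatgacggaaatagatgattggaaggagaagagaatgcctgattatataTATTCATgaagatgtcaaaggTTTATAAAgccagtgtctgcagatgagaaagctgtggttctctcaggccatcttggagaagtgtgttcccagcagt
Hcrt: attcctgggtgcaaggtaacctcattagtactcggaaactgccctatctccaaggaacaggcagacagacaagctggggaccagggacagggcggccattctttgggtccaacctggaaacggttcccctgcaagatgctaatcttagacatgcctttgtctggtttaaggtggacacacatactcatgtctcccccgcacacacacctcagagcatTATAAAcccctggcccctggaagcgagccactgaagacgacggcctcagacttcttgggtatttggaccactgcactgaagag
TATAAA was found 1 time in the Cga and Hcrt windows, and in Prl 2 matches overlap on opposite strands. TATNCAT was found 2 times in Prl and 0 times in the other windows. Over 32851 mouse promoters of this length, 13.6% held TATAAA and 8.84% held TATNCAT.

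Among the other genes named as higher, several act in neurons and membrane traffic. Zfp992 had levels of 13.05 and 12.76 in the 2-choice pools and 7.99 and 8.18 in the chow pools, a log2 difference of 4.82 ± 0.87 (limma adjusted p = 2.223e-04). Lrfn5 had 11.91 and 11.60 against 8.34 and 6.92, a difference of 4.12 ± 0.87 (adjusted p = 0.002001). Grik4, a kainate receptor subunit, had 11.34 and 11.11 against 8.17 and 7.77. Stx6, a SNARE of the trans-Golgi network, had 12.35 and 12.24 in the 2-choice pools and 9.37 and 9.15 in the chow pools. Zdhhc17, a palmitoyltransferase of neurons, differed by 3.15 and Rundc3b by 3.24, but a second, brighter Rundc3b probe did not pass (0.29, adjusted p = 0.5091). Lsm5, of the ring that binds U6 snRNA, differed by 3.76. Psmb5, a catalytic subunit of the proteasome, differed by 3.47, and Alg12, a mannosyltransferase of glycan assembly, by 3.19. Tgs1, which hypermethylates the cap of small nuclear RNA, differed by 2.66. In all 12 genes named as higher both 2-choice pools lay at 10.58 or above, and only Stx6, Cga and Psmb5 had a chow pool above 9.26. The chow mean of each of the 12 was under the filter level, so they passed the filter through their 2-choice pools. The sizes and p-values of their differences depend on this. Of all 457 higher calls, 41 had a chow mean under that level.

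The genes named as lower were mixed in role and mostly dim in the 2-choice pools. Htr2b had levels of 7.72 and 8.30 in the 2-choice pools and 11.96 and 11.23 in the chow pools, a log2 difference of -3.59 ± 0.88 (limma adjusted p = 0.01048). Ripk3 had 8.16 and 7.09 against 10.25 and 12.12, a difference of -3.56 ± 0.84 (adjusted p = 0.00637). Hyou1, a chaperone of the endoplasmic reticulum, had 8.09 and 7.51 against 11.29 and 10.42. Ulk4, a pseudokinase gene, was bright in all pools, with 13.37 and 13.66 in the 2-choice pools and 15.58 and 15.66 in the chow pools. Its log2 difference of -2.10 ± 0.21 had the lowest adjusted p of the named genes (2.214e-10) and nearly the same size in both strains (-2.21 in B6 and -1.99 in B6.CAST-17). Siva1, a regulator of apoptosis, differed by -2.10, and Ush1c, the scaffold protein harmonin, by -1.78, with all pools above 9.26. Ly6k (-3.41), Slamf7, a receptor of lymphocytes (-3.03), Ctsk, the cathepsin of osteoclasts (-2.88), and the T-box gene Tbx15 (-2.77) were under 9.26 in both 2-choice pools. So were Htr2b, Ripk3 and Hyou1. All of these passed the filter, set on the mean of all pools, through their chow pools. The sizes and p-values of their differences depend on this. Of all 296 lower calls, 49 had a 2-choice mean under the filter level.

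A pair of these lower genes rested mainly on 1 chow pool. Fgd3, an exchange factor for Cdc42, had 8.27 and 8.39 in the 2-choice pools and 17.36 and 10.16 in the chow pools, so the strain pairs gave -9.10 in B6 and -1.77 in B6.CAST-17. Spp2, a secreted phosphoprotein, had 8.24 and 8.75 against 10.31 and 14.80, with -2.07 in B6 and -6.05 in B6.CAST-17. Both pairs had the same sign in each gene, and the sizes differed by several log2 units. The 2-choice levels of Fgd3 and Spp2 were under 9.26, so both genes passed the filter through their chow pools.

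**Figure D3:**
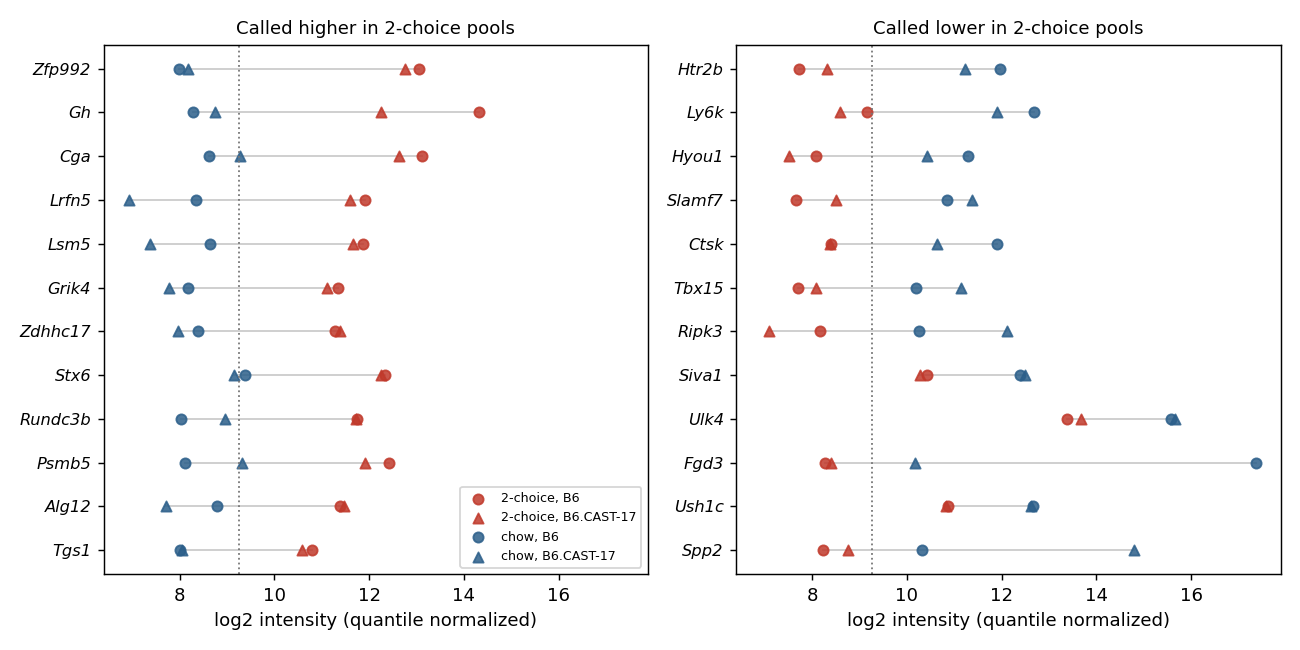
Log2 intensity of the 24 genes named by the size of the gap between the diets, with 1 marker per array: red for 2-choice, blue for chow, circles for B6 and triangles for B6.CAST-17; the dotted line is the filter level of 9.26. Red and blue markers do not overlap in any row, and most rows have 1 diet at or below the line, with Ulk4, Siva1 and Ush1c above it on all arrays.

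Of 12 appetite peptide genes asked about, 10 were on the array with a single symbol; Agrp and Pmch were not among them. Hcrt had levels of 15.98 and 15.88 in the 2-choice pools and 14.48 and 15.72 in the chow pools, a log2 difference of 0.83 ± 0.22 (limma adjusted p = 0.01839). The difference was 1.49 in B6 and 0.16 in B6.CAST-17, so the B6 chow pool set most of it. Hcrt was not called with the spread shared with liver. Nor was it called in each of the 7 strain-paired fits that kept the trend. Npy, the strongest feeding peptide of the arcuate nucleus, had 14.24 and 14.27 in the 2-choice pools and 15.27 and 14.36 in the chow pools, a difference of -0.56 ± 0.22 that did not pass (adjusted p = 0.1492). The difference for Npy was -1.02 in B6 and -0.09 in B6.CAST-17. Again the B6 chow pool stood apart from the other 3.

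The peptides that restrain feeding did not pass. Pomc had levels of 13.14 and 12.56 in the 2-choice pools and 12.87 and 12.15 in the chow pools, and its arrays overlapped (0.34 ± 0.34, limma adjusted p = 0.6331). Cartpt, the CART gene, had 15.47 and 15.33 against 15.13 and 14.98 (0.34 ± 0.20, adjusted p = 0.3659). Crh, the corticotropin-releasing hormone gene, had 11.50 and 11.42 in the 2-choice pools and 8.20 and 12.48 in the chow pools, so the strain pairs pointed opposite ways, at 3.30 in B6 and -1.06 in B6.CAST-17. Trh, the thyrotropin-releasing hormone gene, lay between 15.36 and 15.59 in the 4 pools, with a difference of 0.03 ± 0.20. The 95% interval of that difference was -0.38 to 0.43.

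The neurosecretory peptides asked about did not pass. Gal, the galanin gene, had 14.06 and 14.19 in the 2-choice pools and 14.57 and 14.73 in the chow pools (-0.53 ± 0.22, limma adjusted p = 0.1676), and its diets did not overlap. Avp, the vasopressin gene, differed by -0.40 ± 0.21 and Sst, the somatostatin gene, by -0.48 ± 0.24, both without overlap. Over all tested probes, 54.0% were without overlap. Oxt differed by -0.21 ± 0.28, with overlap. Bdnf, a neurotrophin that also limits feeding, had the widest difference of the appetite-limiting list, at 2.80 with 2.84 in B6 and 2.77 in B6.CAST-17, and lay at the threshold (adjusted p = 0.05014). Of the receptors, Npy1r differed by 1.43, Hcrtr1 by 1.68 and the melanocortin receptor gene Mc4r by 1.18. None of those 3 passed.

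**Figure D4:**
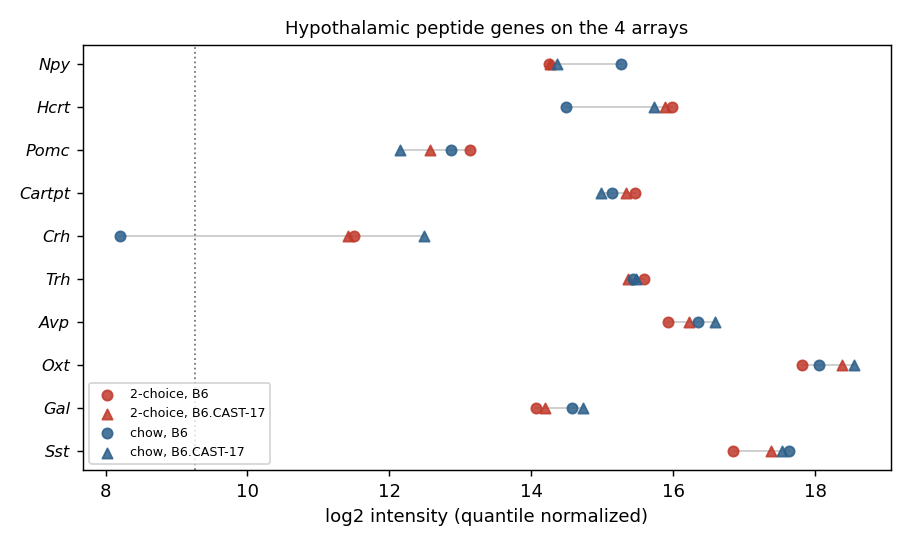
Log2 intensity of 10 hypothalamic peptide genes on each array: red for 2-choice, blue for chow, circles for B6 and triangles for B6.CAST-17; the dotted line is the filter level of 9.26. For Hcrt, Npy and Crh the B6 chow pool (blue circle) stands apart, whereas the 4 pools of Trh lie together.

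In the list of neurosecretory and other hypothalamic peptides, which also holds genes that process and store peptides, 1 gene was called. Pam had levels of 15.49 and 15.94 in the 2-choice pools and 17.13 and 17.03 in the chow pools, a log2 difference of -1.37 ± 0.21 (limma adjusted p = 1.473e-05). It was lower in both strains, by -1.64 in B6 and -1.10 in B6.CAST-17. Pcsk1, the prohormone convertase, differed by 1.71 and the granin gene Scg2 by 0.63, and neither passed (adjusted p = 0.1312 and 0.08075). Of the 18 tested genes of this list 6 were higher and 7 lower in both strain pairs, beside 37.0% higher and 28.4% lower of all 9886 genes tested.

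Lists are described by counts and medians only, and were not tested. The median log2 difference of all tested genes was 0.11, with 2.80% called higher and 1.63% called lower. In both strain pairs 37.0% of all tested genes were higher and 28.4% lower. Calls were more frequent among bright probes, at 8.88% in the brightest and 0.833% in the dimmest of 3 equal parts. Counts of called genes in a list depend on its level too. Among GABA and glutamate receptors, 15 of 21 tested genes were higher and 3 lower in both strain pairs, with a median of 0.82, and 3 were called higher. Beside Grik4 these were Gabrg1, a GABA-A receptor subunit (1.00 ± 0.29, limma adjusted p = 0.03956), and Gria2, the AMPA receptor subunit that sets calcium permeability (0.84 ± 0.20, adjusted p = 0.008854). Gria2 had levels of 16.18 and 16.01 in the 2-choice pools and 15.56 and 14.95 in the chow pools. The NMDA receptor genes Grin2a (0.87) and Grin2b (1.76) did not pass. The median of this list was between 0.60 and 0.82 under every scaling tried, with the median shift of all probes (2.05 as deposited, 0.79 with median centring) subtracted, as for every list.

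The release machinery of synapses was split. Cplx1, a complexin that clamps vesicle fusion, had 16.12 and 15.78 in the 2-choice pools and 14.07 and 15.09 in the chow pools (1.36 ± 0.22, limma adjusted p = 3.551e-05), while its relative Cplx2 had 13.64 and 14.01 against 14.59 and 14.94 (-0.94 ± 0.22, adjusted p = 0.006111). The calcium sensor gene Syt1 was lower (-1.07 ± 0.20, adjusted p = 4.32e-04), as was Stx1a, a plasma membrane SNARE (-0.84), and Syt11 was higher (0.87). The arrays of the diets did not overlap for these 5 genes, nor for 54.0% of all tested probes. Slc1a3, the astrocyte glutamate transporter, had 14.56 and 14.64 in the 2-choice pools and 13.56 and 13.46 in the chow pools (1.09 ± 0.23, adjusted p = 0.001992). Slc6a3, the dopamine transporter, was called higher at 2.64, but with 4.83 in B6 and 0.45 in B6.CAST-17. Kcnd2, a potassium channel of dendrites, was lower (-1.41 ± 0.21, adjusted p = 1.288e-05). In all, 2 genes of the vesicle list were called higher and 3 lower of 21 tested, beside 2.80% and 1.63% of all genes tested.

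Chaperone genes were called in both directions. Hyou1, described above and not in the list, was lower at -3.06. Of 19 tested genes of heat shock and the unfolded protein response, 11 were higher and 3 lower in both strain pairs, with a median log2 difference of 0.48. Among all 9886 genes tested, 37.0% were higher and 28.4% lower in both pairs, and 2.80% were called higher. Hspd1 had levels of 15.30 and 15.20 in the 2-choice pools and 14.20 and 14.16 in the chow pools (1.07 ± 0.21, limma adjusted p = 7.123e-04), although 2 further Hspd1 probes did not pass (0.25 and 0.38). Pdia6, a disulfide isomerase (0.92), and Hsph1, a cochaperone of Hsp70 (0.74), were called higher too. Ddit3, the stress factor CHOP, did not pass at -0.65. Of 16 glycolysis genes tested, 11 were higher and 2 lower in both pairs, with a median of 0.43, and Aldoa, the aldolase, was called (1.03 ± 0.21, adjusted p = 0.001771). Ldha, a lactate dehydrogenase subunit, and Gapdh were the 2 lower, at -0.60 and -0.32, and did not pass. Both medians were positive under each scaling tried, relative to the shift of all probes.

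Of 46 tested oxidative phosphorylation genes, 18 were higher and 14 lower in both pairs, beside 37.0% and 28.4% of all genes, with a median of 0.10 beside 0.11 for all genes. Sdha, the catalytic subunit of succinate dehydrogenase, had levels of 16.41 and 16.34 in the 2-choice pools and 14.88 and 15.59 in the chow pools (1.14 ± 0.21, limma adjusted p = 2.462e-04). The complex I genes Ndufa6 (0.75) and Ndufb5 (0.81) were called higher and Ndufb10 (-0.93) lower, as was Uqcrq of complex III (-0.86). Oxct1, which activates ketone bodies for oxidation, was higher (0.72 ± 0.22, adjusted p = 0.04738). In lipid synthesis, Me1, the cytosolic malic enzyme that supplies NADPH, was higher (1.53 ± 0.46, adjusted p = 0.04529), with 1.55 in B6 and 1.52 in B6.CAST-17. Insig1, the retention protein of sterol sensing, was lower (-0.84 ± 0.22, adjusted p = 0.01526).

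Ribosomal protein and proteasome genes had medians of opposite sign, -0.20 and 0.25. Among all genes tested, 28.4% were lower and 37.0% higher in both pairs, and 1.63% and 2.80% were called. Of 54 tested ribosomal protein genes, 25 were lower and 13 higher in both pairs. Their median stayed negative under each scaling tried, relative to the shift of all probes. Rplp0 was called lower by 1 of its 2 probes (-0.91) and Rpl17 higher (0.95). Of 23 proteasome genes, 12 were higher and 4 lower, and Psmb5, Psmb2 (0.71) and Psma5 (1.09) were called. Psma5 had levels of 14.81 and 14.38 in the 2-choice pools and 12.15 and 14.85 in the chow pools, so its call rests on the B6 chow pool. Without that pool its difference was -0.26.

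**Figure D5:**
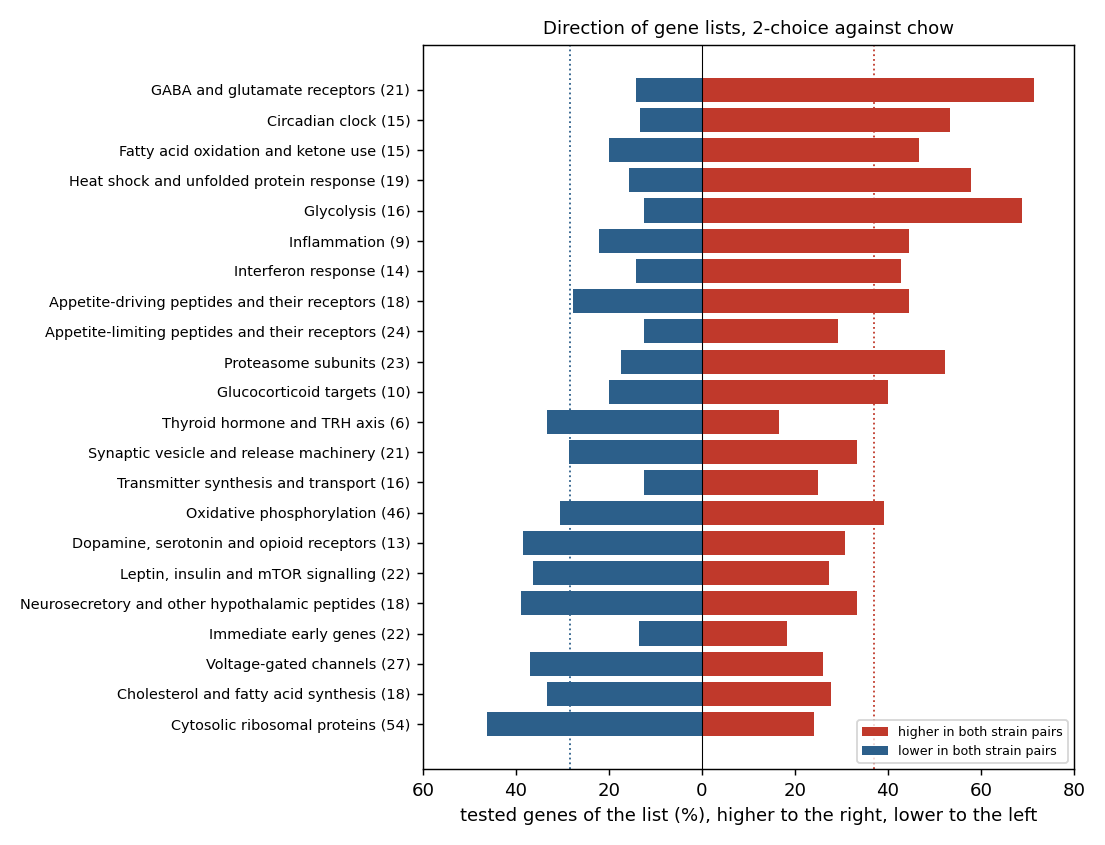
Share of the tested genes of each list (number in brackets) that were higher (red, to the right) or lower (blue, to the left) in 2-choice than in chow in both strain pairs, in %, ordered by the median log2 difference with the highest at the top; dotted lines mark the shares over all 9886 genes, 37.0% higher and 28.4% lower. GABA and glutamate receptors, glycolysis and heat shock lie past the right line, and ribosomal proteins past the left.

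Rapid-response and signalling genes gave few calls. Among all genes tested, 37.0% were higher and 28.4% lower in both pairs, and 2.80% and 1.63% were called. None of 22 tested immediate early genes was called, with 4 higher and 3 lower in both pairs, and 1 had an unadjusted p under 0.05 in limma. Fos differed by 0.49 (adjusted p = 0.3133) and Egr1 by 0.33. None of 22 genes of leptin, insulin and mTOR signalling passed either, with 5 at an unadjusted p under 0.05; Akt1 (0.86) and Pik3ca (1.00) were nearest, at adjusted p = 0.07535 and 0.08585, and Stat3 differed by -0.65. Of 15 clock genes 8 were higher and 2 lower in both pairs, and Csnk1e, the kinase that marks PER proteins, was called lower (-0.79 ± 0.20, adjusted p = 0.01419). The clock repressor genes Nr1d1 and Per2 differed by 1.40 and 0.98 without passing. Of the stress genes, Mt1, a metallothionein, was called lower by 1 of 2 probes (-0.70), and Oasl2 of the interferon response was lower (-1.59, with -0.64 in B6 and -2.54 in B6.CAST-17).

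Markers of the cell types in and around the hypothalamus moved unevenly. Their counts stand beside 37.0% higher and 28.4% lower in both pairs among all genes tested, with 2.80% and 1.63% called. Of 12 astrocyte markers 9 were higher and 0 lower in both pairs (median log2 difference 0.43), and only Slc1a3 passed. Of 10 oligodendrocyte markers 7 were higher and 1 lower (median 0.77), with Mbp, myelin basic protein, called: it had 17.83 and 17.46 in the 2-choice pools and 16.62 and 16.89 in the chow pools (0.89 ± 0.23, limma adjusted p = 0.01789). The microglia genes P2ry12, a purinergic receptor, and C1qa, a complement chain, were called in opposite directions (2.78 and -0.70). Of 8 tested ependyma and tanycyte markers 4 were lower and 0 higher in both pairs, and none passed (limma, 3 at an unadjusted p under 0.05); Foxj1, which drives the making of motile cilia, differed by -0.64 (adjusted p = 0.1101).

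Tissue beside the hypothalamus also varied in its markers. Of 6 tested choroid plexus markers 3 were higher in both pairs and none passed, with 1 at an unadjusted p under 0.05; Ttr, the transthyretin gene that dominates choroid plexus, had 12.08 and 11.87 in the 2-choice pools and 10.03 and 8.81 in the chow pools (2.56 ± 0.83, limma adjusted p = 0.06668). Of 6 thalamus markers, Zic1 was called higher (1.44 ± 0.34, adjusted p = 0.006591), beside Cplx1. Of 9 striatum genes and 8 of cortex and hippocampus limma called none, with 0 and 1 at an unadjusted p under 0.05. The mean level of the choroid plexus list was 11.05 and 10.92 in the 2-choice pools and 10.25 and 9.77 in the chow pools, and that of the thalamus list 13.10 and 13.39 against 12.36 and 13.09. Alb, the albumin gene of hepatocytes, had 9.35 and 11.42 against 8.75 and 8.81 and did not pass (limma adjusted p = 0.3133). Of 11 tested hepatocyte markers 5 were higher and 2 lower in both pairs, beside 37.0% and 28.4% of all genes tested, with a median log2 difference of 0.23. Trf alone was called, beside 2.80% of all genes called higher. It had 16.05 and 15.94 in the 2-choice pools and 15.06 and 15.45 in the chow pools (0.74, limma adjusted p = 0.02449). The hepatocyte markers ranged from -2.09 (Hp) to 2.56 (Ttr, counted in the choroid plexus list too). The part of dissection in the results above was not tested.

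Set against liver, the diet difference was itself tested on all 8 arrays, and 10 of 15466 probes passed (0.0647%), 9 with a higher value in hypothalamus. Gstm2, a glutathione transferase, had levels of 12.54 and 12.33 in the 2-choice hypothalamus pools and 10.45 and 10.08 in the chow pools. Its diet difference was 2.17 in hypothalamus and -1.05 in liver, a difference of 3.22 ± 0.29 (limma adjusted p = 0.02593). The error of this test was shared by both tissues. In the fit of hypothalamus alone the SE of the Gstm2 difference was larger, at 0.64. Oat, ornithine aminotransferase, differed by 0.98 in hypothalamus and -1.17 in liver, and its hypothalamus difference passed by itself (adjusted p = 0.007759). Cth, of transsulfuration, and Ttr were higher in hypothalamus and lower in liver in both strain pairs, though not called within hypothalamus. Hp, the haptoglobin gene, was the lone named gene in the other direction, at -2.09 in hypothalamus and 0.25 in liver.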

How the data were processed

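Per the labels' protocols, each array read a pool of RNA from 6 mice, copied into digoxigenin-labelled cRNA and detected by chemiluminescence in 1 channel. The authors deposited intensity on a linear scale for 33012 probes. How they corrected background and scaled arrays is not stated in the labels. The deposited intensities were taken to log2 and quantile normalized over the 4 hypothalamus arrays. Probes with a mean at or above the 40th percentile (9.26) were tested, 19807 in all. The diet effect came from limma 3.58.1 under R 4.3.3, using lmFit and a trended eBayes, with strain as a block (1 residual degree of freedom, 57 prior) and Benjamini-Hochberg adjustment at 0.05. SEs and 95% intervals are limma's. The number of arrays limits the precision. The fit was also run on simulated data whose noise had the fit's own variances, the same for all 4 arrays. That run cannot show whether these variances suit the real pools.

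Groups came from the sample titles. Strain pairs the arrays by design, so the block is part of the fit. Probes had 1 gene symbol in 14411 cases, several in 247 and none in 18354, per GEO's platform annotation; 14402 matched RefSeq by gene ID. Named were the 12 higher and 12 lower called genes with the widest gap between the diets, called list members, up to 4 per list by gap and the appetite peptides. The names of olfactory receptor and unnamed-locus genes were left out. The members and lists (22 pathway, 16 marker) were chosen with earlier results of these data known. Separate values per pool are not repeated measurements. The residual of a probe is its strain by diet difference, with 1 degree of freedom against 57 prior. SEs and p-values therefore reflect mostly the spread of probes of similar level, not that of the gene itself. A gene whose strain pairs differ widely, such as Fgd3 or Hcrt, can so have a small SE. Alternatives were other scalings, filters, a pseudocount of 256, variance models, pairings and left-out arrays; a crossed pairing was run because of the conflicting description.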

Additional observations from a re-analysis of the deposited data

Results flagged for a closer look

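The test of hypothalamus minus liver passed for 10 probes. The differences, on the log2 scale, were 3.34 for Cth, 2.14 for Oat, -2.34 for Hp, 3.28 for Ttr, 3.81 for Cyp2c29, 2.81 for Upp2 and 3.22 for Gstm2, with 2.46, 2.52 and 2.08 for 3 probes that have no symbol here. Cyp2c29, a cytochrome P450 gene, was at 11.30 and 10.74 in the 2-choice hypothalamus pools and 8.48 and 8.93 in the chow pools. The hypothalamus chow means of Cyp2c29, Cth and Upp2 were under the filter level, so these genes passed it there through their 2-choice pools.

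In 3 called genes both hypothalamus pairs were higher in 2-choice and both liver pairs lower. The hypothalamus differences were 3.15 for Zdhhc17, 3.47 for Psmb5 and 3.19 for Alg12, and the test of the difference from liver did not pass for them (limma adjusted p = 0.1588, 0.0881 and 0.1543).

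The strain pairs pointed opposite ways for 2 appetite peptides, and this difference was not tested. Crh was at 3.30 in the B6 pair and -1.06 in the B6.CAST-17 pair, and Trh at 0.16 and -0.11.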

How the results depend on the processing

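The count of called probes, 753, was 15588 as deposited (15528 higher, 60 lower; median shift 2.05), 8558 with median centring (7952 higher, 606 lower; shift 0.79) and 2660 relative to either shift (1153 higher, 1507 lower), a setting added after the data were seen. It was 475 with cyclic loess (222 higher, 253 lower), 255 with no filter, 402 at the 60th percentile, 360 with the pseudocount, 0 without the trend, 0 with no strain block and 97 with the spread shared with liver. Robust eBayes gave 665 and the crossed pairing 1099. Leaving out 1 array, with no strain block, gave 63 to 8393: 63 without 2-choice B6, 140 without 2-choice B6.CAST-17, 6582 without chow B6 and 8393 without chow B6.CAST-17. The cause was not tested.

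Of 63 called probes given by the naming rule, 8 were also called with the spread shared with liver: Zfp992, Gh, Lrfn5, Lsm5, Psmb5, Ulk4, Pam and Hspd1. With no filter 36 of the 63 lost their call and 27 kept it, and with the pseudocount 30 lost and 33 kept it. Among those still tested, cyclic loess lost 22 and kept 37, and the 60th percentile lost 17 and kept 33. Robust eBayes lost 9 and kept 54, and the crossed pairing kept all 63. Direction reversed for Psma5 (-0.26 without chow B6; -0.47 to 2.66 leaving out 1 pair) and for peptides that did not pass: Pomc (-0.025 without chow B6.CAST-17), Crh (-1.04 without chow B6, -1.06 to 3.30 leaving out 1 pair), Oxt (0.0753 without 2-choice B6, 0.0492 without chow B6.CAST-17) and Trh (-0.0859 without 2-choice B6, -0.11 to 0.16 leaving out 1 pair). Medians, relative to the shift of all probes, changed sign in 3 of 38 lists with loess, 7 as deposited, 7 with median centring, 4 with no filter, 4 at the 60th percentile and 0 with the pseudocount. The hypothalamus minus liver count of 10 was 10781 as deposited, 3901 with median centring and 2 at the 60th percentile, and 10 to 13 otherwise.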

Other observations

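A set of 7 strain-paired fits of the 4 arrays kept the trend: that of the report, cyclic loess, both filters, the pseudocount, robust eBayes and the crossed pairing. The fits as deposited and with median centring, which shift most probes upward, were left out of the set. In these 7 fits 157 probes were called each time, 108 higher and 49 lower in the 2-choice pools, with 77 named genes; 46 of the 157 were also called with the spread shared with liver. Of the genes named by gap, Zfp992, Gh, Cga, Stx6, Ly6k, Ulk4 and Spp2 were among the 157. The others, such as Lrfn5, Psmb5, Htr2b and Ripk3, were not, nor was Hcrt. The set was defined after the data were seen, and the genes below were picked from it by their known roles after their values were seen. Chaperone genes picked in this way were Hspa9, Hspa4l and Trap1, all higher, whereas Hyou1, called lower in the report (-3.06), is not in the set. Hspa9, the mitochondrial Hsp70, had levels of 15.04 and 14.94 in the 2-choice pools and 13.47 and 13.74 in the chow pools (log2 difference 1.39 ± 0.22). Hspa4l, a relative of Hsp110, had 14.40 and 14.25 against 12.95 and 12.35 (1.67 ± 0.26). Trap1, the mitochondrial Hsp90, had 13.03 and 12.86 against 8.91 and 11.94, with the B6 chow pool far below the other.

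Genes of membrane and lysosome traffic were also in the set. Psap, the precursor of the saposins, had 17.01 and 16.61 in the 2-choice pools and 15.72 and 15.62 in the chow pools (1.14 ± 0.21), and Rab14, a GTPase of endosomes, had 15.95 and 15.57 against 14.57 and 14.75 (1.10 ± 0.20). Glrb, the beta subunit of the glycine receptor, had 14.94 and 14.79 against 13.32 and 13.33 (1.54 ± 0.23). Among the lower, Cog6, of the Golgi tethering complex, had 13.62 and 12.98 in the 2-choice pools and 14.91 and 14.39 in the chow pools (-1.35 ± 0.23), and Psenen, a subunit of gamma-secretase, had 15.25 and 15.41 against 16.19 and 16.58 (-1.05 ± 0.20).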
